A study of Rattus norvegicus with 311 samples.

Results

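Integrins are the membrane receptors through which cells hold on to the extracellular matrix, and laminins are the large glycoproteins of basement membranes that several integrins bind. The genes described here are the 40 rows, for 38 genes, of a rat count table of 22253 rows whose names start with Itga and a further letter or digit, with Itgb and a digit, or with Lama, Lamb or Lamc and a digit. The rule uses names alone and no measured value, though the 2 families were taken up with earlier results of these data known. Integrin and laminin subunits make up 37 of these rows (35 genes): 17 rows for 16 integrin alpha chains, 9 rows for 8 integrin beta chains and 11 rows for laminin chains. The other 3 rows, Itgb1bp1, Itgb1bp2 and Itgb3bp, match by name but encode binding partners or unrelated proteins rather than subunits. Itgb3 and Itgad are each read by 2 probes, and all 40 names were matched to RefSeq genes. Itga6 and Itgam are not analysed here.

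Each integrin is a pair of 1 alpha and 1 beta chain. Itgb1 pairs with most alpha chains that hold collagen, fibronectin or laminin, Itgav pairs with Itgb3, Itgb5, Itgb6 or Itgb8 to bind matrix proteins that carry the tripeptide RGD, and Itgb2 pairs with the leukocyte chains Itgad, Itgal and Itgax. Each laminin is a trimer of an alpha, a beta and a gamma chain. Lama3 and Lamb3 are chains of the laminin that anchors epithelia such as the epidermis, and the pair of Itga3 with Itgb1 and the hemidesmosome integrin that contains Itgb4 bind it, whereas Lamb1 and Lamb2 are the beta chains of most other laminins. In healthy liver, hepatocytes face a sinusoid that lacks a continuous basement membrane and carry few kinds of integrin, while laminins lie around bile ducts and vessels.

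Transcripts were counted by TempO-Seq, in which pairs of detector oligonucleotides are ligated on their target RNA and counted by sequencing, in 311 libraries. Freshly isolated hepatocytes of male Sprague Dawley rats, whose age is not given in the sources used here, were plated on collagen-coated 96-well plates alone (monoculture, 156 libraries) or with non-parenchymal liver cells enriched on a density gradient (co-culture, 155 libraries). Wells were sampled on day 1, 3 or 7 after plating and had received, for the last 24 hours, vehicle (not named in the labels) or 1 of 4 compounds: phenobarbital at 0.1, 1 or 10 mM, ketoconazole at 1, 10 or 30 µM, gemfibrozil at 10, 100 or 1000 µM, or GW7647 at 0.01, 0.1 or 1 µM. Phenobarbital is a sedative that switches on CAR, ketoconazole is an azole antifungal, gemfibrozil is a lipid-lowering fibrate and GW7647 activates PPAR-alpha. Culture, day, compound and dose define 78 groups, of which 65 hold 4 libraries, 7 hold 3 and 6 hold 5, and the 24 vehicle libraries form 6 groups of 4. Most groups have 1 library on each of the plates 1, 3, 5 and 7, and per-library values below are given in that plate order. Phenobarbital on day 3 has 3 libraries per group (plates 1, 5 and 7), and gemfibrozil and GW7647 on day 3 also have libraries on a plate 9, which carries no vehicle.

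Sequencing depth lay between 412414 and 12272575 counts per library (median 6054414), and the shallowest library is of day 7. Labels conflicted in 2 places: 33 monoculture libraries described as phenobarbital carry ketoconazole as their compound label, and 3 co-culture GW7647 libraries of day 3 carry 1 µM in place of the described 0.1 µM. The descriptions were followed. Phenobarbital counts and most changes described singly, though not those of Itgb5, are therefore also given in co-culture alone. Results that hold the 3 GW7647 libraries are also given without them. Replicates are called biological, but separate animals are not stated. A p-value here therefore sets a difference against library-to-library spread that can be technical. The cultures changed with time in ways that move with the results below. The summed level of 10 hepatocyte marker probes fell from a median of 54020 CPM (counts scaled to a depth of 1000000) in monoculture vehicle on day 1 to 13870 on day 7, and from 50520 to 12470 in co-culture, while 11 stellate and mesenchymal probes rose from 183 to 2551 and from 162 to 5754. Macrophage markers (12 probes) went from a median of 127 to 551 CPM in monoculture and from 194 to 1192 in co-culture, and cholangiocyte markers (9 probes) from 42.4 to 1034 and from 76.8 to 1569. At an adjusted p under 0.05, 6 macrophage probes rose and 1 fell in monoculture, and 7 rose and 2 fell in co-culture. Of 9 endothelial probes tested 2 rose and 0 fell in each culture, with a median log2 fold change of -1.14 in monoculture and 0.98 in co-culture. On day 1 Col1a1 and Lum were at 0 in the vehicle libraries of both cultures, and the macrophage and hepatocyte lists had no probe at 0. In such bulk samples fewer cells of a type and less RNA per cell cannot be told apart, and the part of these shifts in the results was not tested.

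Promoter windows from 250 bases before to 50 bases after the annotated start were found in RefSeq (build GRCr8) for 30 of the 38 genes. The windows of 3 laminin genes are shown because the results below turn on them: Lamb3 fell late in the week, its partner Lama3 fell with ketoconazole and gemfibrozil, and Lamc1, the gamma chain of most laminins, held its level over the week and fell with 3 of the 4 compounds. Capitals mark, on either strand, TGANTCA, the core that AP-1 factors bind, in Lama3, and GGGCGG, the GC box, in Lamc1, and Lamb3 holds neither string. The windows lie at chr18:3952517-3952816 (plus strand, Lama3), chr13:107362303-107362602 (plus strand, Lamb3) and chr13:68051937-68052236 (minus strand, Lamc1).
Lama3: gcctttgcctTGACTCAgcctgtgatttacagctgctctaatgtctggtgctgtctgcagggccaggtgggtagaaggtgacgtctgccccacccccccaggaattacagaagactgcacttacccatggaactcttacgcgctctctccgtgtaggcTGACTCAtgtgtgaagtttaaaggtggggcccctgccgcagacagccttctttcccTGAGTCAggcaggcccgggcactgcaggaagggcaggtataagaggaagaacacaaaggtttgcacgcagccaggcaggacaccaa
Lamb3: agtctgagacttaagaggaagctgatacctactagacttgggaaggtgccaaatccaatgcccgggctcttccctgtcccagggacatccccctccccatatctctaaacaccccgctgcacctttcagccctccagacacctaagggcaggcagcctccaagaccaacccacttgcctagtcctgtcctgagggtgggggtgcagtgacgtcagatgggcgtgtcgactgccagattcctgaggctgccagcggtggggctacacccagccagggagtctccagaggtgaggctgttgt
Lamc1: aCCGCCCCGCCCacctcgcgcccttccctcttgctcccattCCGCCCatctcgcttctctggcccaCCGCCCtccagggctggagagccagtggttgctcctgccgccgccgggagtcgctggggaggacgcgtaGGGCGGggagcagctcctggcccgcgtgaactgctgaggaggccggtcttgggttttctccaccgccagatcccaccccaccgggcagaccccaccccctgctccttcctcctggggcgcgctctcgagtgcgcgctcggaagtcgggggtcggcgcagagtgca
TGANTCA was found 3 times in the Lama3 window and in 2 of the 30 member windows (Lama3 and Itgax), against 7.33% of all 33469 rat windows of that length. GGGCGG was found 5 times in the Lamc1 window and in 14 of the 30 member windows, against 33.1% of all windows. A match is a run of letters and not a measured site. Lama3 and Lamb3, partners in the epithelial trimer, share neither string in these windows.

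The first question is how these genes changed over the week in culture without any compound. In vehicle wells, receptors and matrix chains rose in both cultures, among them the laminin chain Lamb2, the laminin-binding integrin chain Itga3, the hemidesmosome chain Itgb4 and Itga9, while Lamb3 was the 1 tested member that fell between day 1 and day 7. The rows of Itgb1, Itgav, Itgb5 and Lamc1 did not pass the test between those days. Between day 1 and day 7, 14 members rose and 1 fell in monoculture, and 15 rose and 1 fell in co-culture, out of 28 rows with enough counts to test, and 12 of the 40 rows were not tested. Over all 11823 rows tested, 22.4% were called in monoculture (13.7% higher and 8.75% lower) and 22.8% in co-culture (15.2% higher and 7.56% lower), where called means an adjusted p under 0.05. Of the 28 rows, 11 passed the filter on low counts only through the day-7 libraries, among them Itga8, Itga11, Itgad, Itgb8, Lama2, Lama4 and Lamb1, and could therefore hardly be found lower on day 7. They hold 8 of the rises in each culture. Of the 17 rows that passed on days 1 and 3 alone, 6 rose in monoculture and 7 in co-culture. Without plate 5 the monoculture count of 15 called rows was 6 (7.55% of all rows). The co-culture count of 16 was 8 without plate 3 (9% of all rows) and 10 without plate 1 (16.1% of all rows). Among integrin rows 10 of 18 tested rose in monoculture and 11 in co-culture, with none lower, and among laminin rows 4 of 9 rose and 1 fell in both cultures. Of the members that rose, 14 were called in both cultures, and Itga1 in co-culture alone. Counted over libraries, 13 of the 40 rows were higher in all 4 day-7 libraries than in all 4 day-1 libraries in monoculture and 15 in co-culture, and 2 rows in monoculture (Lamb3 and Itgb1bp1) and 0 in co-culture were lower in all of them. Of all 22253 rows 8.89% in monoculture and 9.61% in co-culture were higher in this way, and 6.43% and 5.78% were lower.

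**Figure D1:**
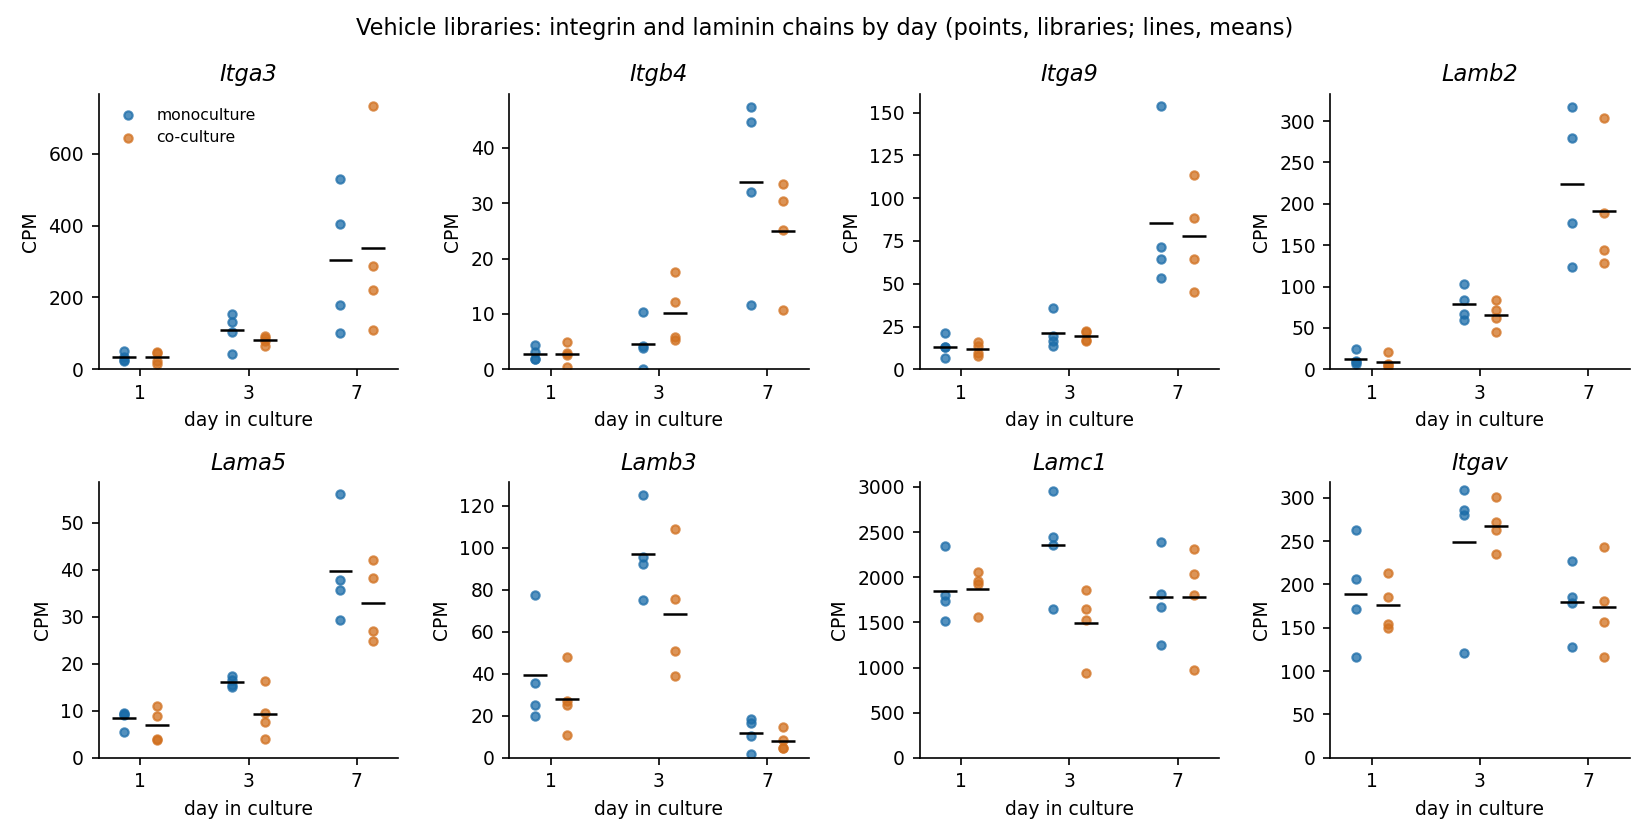
Level in CPM (vertical axes, each starting at 0) of 8 integrin and laminin chains in the vehicle libraries on days 1, 3 and 7 (horizontal axes), with blue points for monoculture, orange points for co-culture and black lines for group means. Itga3, Itgb4, Itga9, Lamb2 and Lama5 are higher in every day-7 library than in any day-1 library of the same culture, Lamb3 has its highest means on day 3, and Lamc1 and Itgav overlap between day 1 and day 7.

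Among the laminin receptors, Itga3, the alpha chain that pairs with Itgb1 to bind laminin, stood at 51.02, 34.8, 22.1 and 27.01 CPM in the monoculture vehicle libraries on day 1, at 42.9, 132, 104 and 154 on day 3 and at 179.6, 100.0, 530.1 and 406 on day 7. In co-culture its levels were 45.96, 24.4, 15.97 and 47.99 CPM on day 1, 87, 66.2, 79.7 and 92.4 on day 3 and 110.4, 222, 732 and 289 on day 7. Every day-7 library lay above every day-1 library in both cultures, and plate 5 was the highest on day 7 in both. From day 1 to day 7 the log2 fold change was 3.24 ± 0.54 (SE, adjusted p = 0.000201) in monoculture and 3.37 ± 0.54 (SE, adjusted p = 0.00013) in co-culture, and the call held without any single plate. Itgb4, the beta chain of hemidesmosomes, stood at 1.81, 4.44, 3.10 and 1.80 CPM in monoculture on day 1 and at 32.01, 47.4, 11.6 and 44.6 on day 7. Its co-culture levels were 3.04, 0.432, 4.88 and 2.67 CPM and 30.4, 25.2, 10.8 and 33.4. All 8 day-7 libraries were above all day-1 libraries, with plate 5 the lowest of day 7 in both cultures, where Itga3 was highest. Itgb4 thus changed in log2 by 3.70 ± 0.74 (SE, adjusted p = 0.00109) in monoculture and 3.19 ± 0.72 (SE, adjusted p = 0.00304) in co-culture.

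Itga9, whose product pairs with Itgb1 and binds tenascin and osteopontin, stood at 12.8, 21.3, 12.8 and 6.38 CPM in monoculture on day 1 and at 64.3, 71.8, 154 and 53.3 on day 7. In co-culture the values were 16, 7.56, 13.9 and 9.33 CPM and 64.5, 114, 88.2 and 45.4, and the days did not overlap in either culture. Its log2 fold change was 2.77 ± 0.41 (SE, adjusted p = 6.39e-05) in monoculture and 2.77 ± 0.41 (SE, adjusted p = 6.16e-05) in co-culture, with no plate deciding the call. Itga5, the fibronectin receptor chain, had 31.5, 29.6, 32.1 and 15.2 CPM in monoculture on day 1 and 47.4, 88, 106 and 28.2 on day 7. Plate 7 of day 7 lay within the day-1 values. In co-culture it had 40.3, 14.3, 14.4 and 13.9 CPM and 63.5, 117, 121 and 33.3. There too plate 7 of day 7 lay below plate 1 of day 1. In log2 fold change this was 1.405 ± 0.44 (SE, adjusted p = 0.0242) in monoculture, a call lost without plate 3 or 5 (adjusted p up to 0.209). In co-culture it was 2.04 ± 0.45 (SE, adjusted p = 0.00237), lost without plate 3 (adjusted p up to 0.0629).

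The collagen receptor chain Itga1, which in liver is found on hepatocytes and sinusoidal cells, had 47.5, 136, 74.4 and 21.1 CPM in monoculture on day 1 and 115, 229, 182 and 56.5 on day 7. Its co-culture values were 42.1, 31.98, 65.9 and 20.4 CPM and 188, 169, 107 and 55.6, and the days overlapped in both cultures. The rise was called in co-culture, with a log2 fold change of 1.74 ± 0.49 (SE, adjusted p = 0.0142), and not in monoculture, at 1.16 ± 0.49 (SE, adjusted p = 0.0859). With plate as a block, the monoculture change passed the threshold too (adjusted p = 0.00989), and the co-culture call was lost without plate 1 or 3 (adjusted p up to 0.107) in the analysis without the block. The difference of this change between the cultures was not called. Itga11, a second collagen receptor chain, is typical of fibroblasts and was picked after its values were seen. It had no count in any vehicle library on day 1 or day 3. Over the 4 monoculture libraries of day 7 it had 122 counts, at least 39.5-fold above the limit that 3 counts over the day-1 group set. In co-culture its 93 counts of day 7 were at least 26.9-fold above that limit. These bounds cover counting error only. The monoculture call of Itga11 was lost without plate 1 or 5 (adjusted p up to 0.143). Its co-culture call was lost without plate 1, 3 or 5 (adjusted p up to 0.0898) and did not pass by DESeq2 (adjusted p = 0.0554). Itga8, a chain typical of mesenchymal cells, went from 2 to 196 counts over the monoculture groups, a ratio of 95.2 (26.01 to 792, exact 95% interval, counting error only). In co-culture it went from 2 to 253 counts, a ratio of 110 (30.1 to 911). The monoculture call of Itga8 was lost without plate 5 (adjusted p up to 0.0537). Both Itga8 and Itga11 passed the filter on low counts only through the day-7 libraries, so a fall could hardly be found.

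The leukocyte chain Itgad had 1.25, 0.716, 0.365 and 0 CPM in monoculture on day 1 and 5.08, 3.75, 9.62 and 3.25 on day 7. In co-culture it had 0.607, 0.864, 0.222 and 0.571 CPM and 10.9, 10.7, 10.8 and 8.54. The days did not overlap in either culture, and the 4 co-culture libraries of day 7 lay within a narrow band. On the log2 scale the change was 3.21 ± 0.82 (SE, adjusted p = 0.00759) in monoculture, lost without plate 5 (adjusted p up to 0.136). In co-culture it was 4.23 ± 0.86 (SE, adjusted p = 0.00127). Its partner Itgb2 had 2.54, 4.53, 1.33 and 0.271 CPM in monoculture and 7.96, 5.46, 6.598 and 1.49 CPM in co-culture on day 7. Against day 1, where no vehicle library exceeded 1.15 CPM, its log2 fold change of 1.404 ± 1.15 (SE, adjusted p = 0.395) in monoculture and 3.19 ± 1.22 (SE, adjusted p = 0.0609) in co-culture did not pass the test. Both Itgad and Itgb2 passed the filter on low counts only through the day-7 libraries. A fall could hardly be found for them, and their p-values are no separate support for a rise. The summed macrophage marker level of the day-7 vehicle libraries ran from 340 to 743 CPM in monoculture and from 962 to 1939 CPM in co-culture, and its part in these values was not tested.

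Several of the widely expressed chains showed no called change over the week. Itgb1, the common beta chain, had 748, 575, 556 and 565 CPM in monoculture on day 1 and 410.4, 354, 855 and 601 on day 7. Its co-culture values were 704, 515, 577 and 509.8 CPM and 375, 617, 1253 and 622, with the widest spread on day 7. Its change in log2 was -0.05 ± 0.30 (SE, adjusted p = 0.919) and 0.35 ± 0.30 (SE, adjusted p = 0.423). Itgav, the common RGD-binding alpha chain, had 172, 262, 207 and 117 CPM and 127, 179, 227 and 185 in monoculture on these days. In co-culture it had 213, 155, 186 and 150.1 CPM and 116, 180.4, 243 and 156. All of these ranges overlap, and its log2 fold changes were 0.01 ± 0.28 (SE, adjusted p = 0.982) and 0.02 ± 0.28 (SE, adjusted p = 0.962). Of the beta chains that pair with Itgav, both Itgb3 probes and Itgb8, picked after their values were seen, were called higher from counts that were nearly absent on day 1, while Itgb5 was not called. In monoculture Itgb5 averaged 196 ± 22.9 CPM (SD, n = 4) at the start and 152 ± 61.9 CPM (SD, n = 4) at the end of the week. At the highest doses Itgb5 was called lower with phenobarbital (-1.58 and -0.98 in log2) and gemfibrozil (-1.17 and -1.09) on days 1 and 3. Ketoconazole lowered it on day 1 (-1.04). Only the phenobarbital call of day 1 held without any single plate. The phenobarbital call of day 3 and the ketoconazole call were lost without plate 3, 5 or 7 (adjusted p up to 0.401). The gemfibrozil calls were lost without plate 3 or 5 on day 1 and without plate 5 on day 3. Its changes in co-culture alone are not given here. The call of Itgb8 in co-culture was lost without any 1 of the 4 plates, as was that of Itgb3 probe 42894 in monoculture. In monoculture Itgb8 lost its call without plate 7, and Itgb3 probe 42894 in co-culture without plate 1, 3 or 7. Itgb3 probe 40915 lost its call without plate 1, 5 or 7 in monoculture and without plate 1 or 3 in co-culture. Itgb8 and both Itgb3 probes passed the filter on low counts only through the day-7 libraries.

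**Figure D2:**
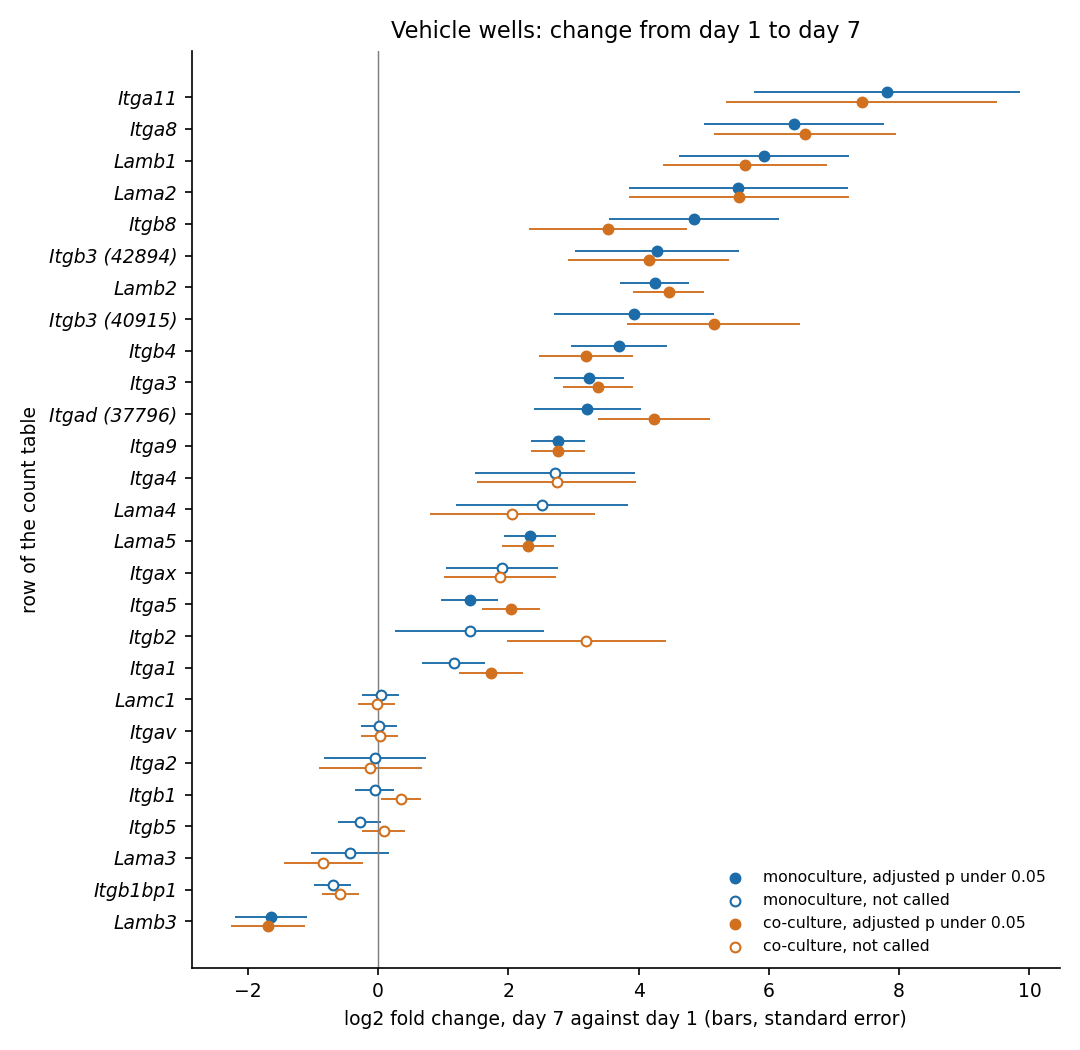
Log2 fold change from day 1 to day 7 (horizontal axis, bars are standard errors) of 27 of the 28 tested rows (vertical axis, ordered by the monoculture value) in vehicle wells, blue for monoculture and orange for co-culture. Filled symbols passed an adjusted p of 0.05. The values of the 2 cultures lie close together in nearly every row, and the widest bars belong to rows with few counts on day 1, such as Itga11, Itga8, Lama2 and Lamb1.

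Among the laminins, Lamb2, a beta chain of vessel, muscle and glomerular basement membranes, had 10.3, 25.1, 8.75 and 6.06 CPM in monoculture on day 1, 60, 103, 83.4 and 66.9 on day 3 and 124, 318, 279 and 177 on day 7. In co-culture it had 21.1, 2.81, 6.32 and 5.33 CPM on day 1, 71.7, 61.5, 45.4 and 84.2 on day 3 and 144, 304, 189 and 128 on day 7. No day overlapped another in either culture. From day 1 to day 7 Lamb2 changed in log2 by 4.25 ± 0.53 (SE, adjusted p = 9.56e-06) in monoculture and 4.46 ± 0.54 (SE, adjusted p = 6.16e-06) in co-culture, and it held without any single plate. Lamb2 was also the 1 member called between day 1 and day 3 in monoculture, at 2.69 ± 0.50 (SE, adjusted p = 0.00368), lost without plate 5 or 7 (adjusted p up to 0.0772). Of all rows 2.52% were called in that comparison (1.76% higher, 0.761% lower). In co-culture, 3 members rose by day 3, where 9.06% of all rows were called (4.11% higher, 4.95% lower): Lamb2 at 2.95 ± 0.51 (SE, adjusted p = 0.00119), Itgad at 2.99 ± 0.84 (SE, adjusted p = 0.0274) and Itgax at 2.84 ± 0.88 (SE, adjusted p = 0.0437). The last 2 were each lost without several plates, Itgad without plate 1, 3, 5 or 7 (adjusted p up to 0.257). With plate as a block 5 members were called there (13.7% of all rows): Lamb2, Itgad, Itga1, Itga5 and Lamb3, and no longer Itgax (adjusted p = 0.0602).

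Lamb3, the beta chain of the epithelial laminin, had 35.8, 77.6, 24.98 and 20.1 CPM in monoculture on day 1, 75.1, 95.7, 125 and 92.4 on day 3 and 10.3, 16.5, 1.82 and 18.6 on day 7. Its co-culture values were 48.2, 25.3, 10.7 and 27.2 CPM, 109, 75.8, 38.8 and 51.05 and 14.9, 4.70, 4.51 and 8.33 on these days. Its mean was highest on day 3 and lowest on day 7, and days 3 and 7 did not overlap in either culture. From day 3 to day 7 it fell by a log2 fold change of -2.99 ± 0.58 (SE, adjusted p = 0.00281) in monoculture and -3.08 ± 0.59 (SE, adjusted p = 0.002) in co-culture, and both calls held without any single plate. Between day 1 and day 7 the change was -1.64 ± 0.56 (SE, adjusted p = 0.0367) and -1.69 ± 0.56 (SE, adjusted p = 0.0337), calls that were lost without plate 1, 3 or 5 (adjusted p up to 0.178) in monoculture and without plate 1, 3 or 7 (adjusted p up to 0.15) in co-culture. Over days 3 to 7, 12 members rose and 2 fell in monoculture and 10 rose and 2 fell in co-culture, against 15.7% (8.14% higher, 7.54% lower) and 18.5% (11.8% higher, 6.69% lower) of all rows called. The monoculture count of 14 was 3, 9 and 2 without plates 1, 3 and 5 (3.11%, 8.91% and 2.04% of all rows), and the co-culture count of 12 was 6 and 7 without plates 3 and 5 (6.12% and 10.8%). The second row that fell was Itgb1bp1, a cytosolic partner of the Itgb1 tail, at -1.001 ± 0.29 (SE, adjusted p = 0.0223) and -0.82 ± 0.28 (SE, adjusted p = 0.0462).

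Its partner Lama3 was not called between day 1 and day 7. It had 5.16, 10.6, 5.29 and 6.71 CPM in monoculture on day 1, 35.5, 9.81, 11.98 and 4.07 on day 3 and 3.74, 4.53, 1.82 and 9.08 on day 7, with 1 library of day 3 above the others. From day 1 to day 7 its log2 fold change was -0.43 ± 0.60 (SE, adjusted p = 0.64) in monoculture and -0.84 ± 0.61 (SE, adjusted p = 0.329) in co-culture. From day 3 to day 7 it was -1.67 ± 0.61 (SE, adjusted p = 0.0641) in monoculture, a change that passed with plate as a block (adjusted p = 0.0406). Lamc1 had 1738, 2344, 1808 and 1518 CPM and 1251, 1818, 1675 and 2391 in monoculture on days 1 and 7. In co-culture it had 1922, 2053, 1560 and 1956 CPM and 969, 1801, 2314 and 2032. These ranges overlap widely, with log2 fold changes of 0.04 ± 0.28 (SE, adjusted p = 0.94) and -0.02 ± 0.28 (SE, adjusted p = 0.963). Lama5, the alpha chain of many adult epithelial and vessel laminins, had 9.20, 9.59, 9.30 and 5.40 CPM on day 1 and 37.8, 29.3, 56.1 and 35.8 on day 7 in monoculture. In co-culture it had 4.05, 11.02, 8.87 and 3.81 CPM and 38.2, 27.1, 42.02 and 24.8. Both days were apart in both cultures, and Lama5 rose by log2 fold changes of 2.33 ± 0.40 (SE, adjusted p = 0.000306) and 2.30 ± 0.40 (SE, adjusted p = 0.000328), which no single plate decided. Lamb1, the beta chain that alternates with Lamb2 in most laminins, went from 1 to 89 counts over the monoculture groups, a ratio of 86.5 (15.1 to 3454, exact 95% interval). In co-culture it went from 2 to 128 counts, a ratio of 55.5 (15.1 to 463). The monoculture call was lost without plate 5 (adjusted p up to 0.0537). Lamb1 passed the filter on low counts only through the day-7 libraries, so a fall could hardly be found.

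The share of Lamb2 relative to Lamb3 within a library does not depend on library size or scaling, so it was also computed, a measure chosen after the values were seen. The log2 ratio of the Lamb2 count to the Lamb3 count (each plus 0.5) was -1.79, -1.63, -1.50 and -1.72 in the 4 monoculture libraries of day 1. It was -0.32, 0.11, -0.59 and -0.47 on day 3 and 3.58, 4.26, 7.19 and 3.25 on day 7. In co-culture it was -1.19, -3.12, -0.75 and -2.33 on day 1, -0.60, -0.30, 0.23 and 0.72 on day 3, and 3.26, 5.99, 5.36 and 3.93 on day 7. No day overlapped another in either culture, and the mean moved by 6.23 in monoculture and 6.48 in co-culture between day 1 and day 7. Since both genes were picked for these courses, the ratio is a description, and no p-value of it is used here. The 2 probes need not capture their targets equally, so the ratio is read across days and not as an amount of one chain against the other.

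**Figure D3:**
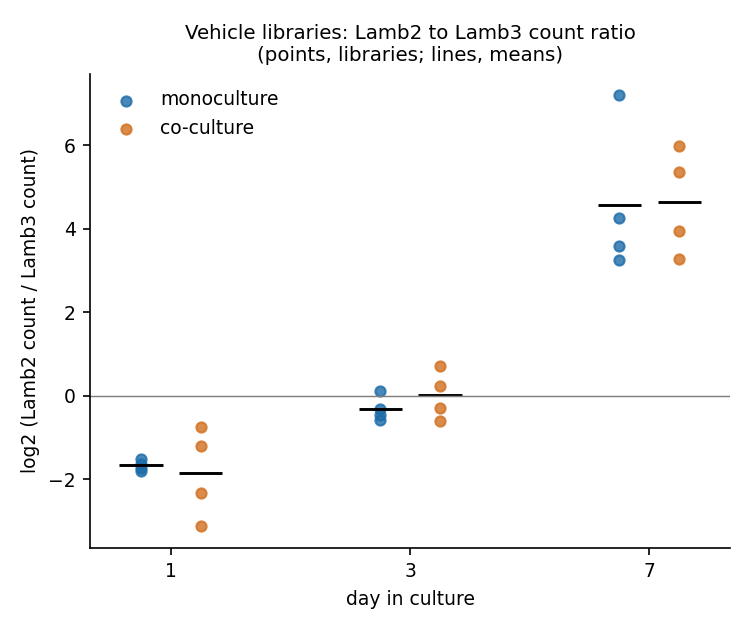
Log2 ratio of the Lamb2 count to the Lamb3 count (vertical axis, each count plus 0.5) in each vehicle library by day in culture (horizontal axis), blue for monoculture and orange for co-culture, with lines for group means. The ratio is below 0 in all 8 libraries of day 1, near 0 on day 3 and above 3 in all 8 libraries of day 7.

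Wells at the lowest dose of each compound are other libraries than the vehicle wells but lie mostly on the same plates. The genes given here were picked by their course in vehicle, so these wells describe that course and are no independent test of it. Over the 8 groups of lowest-dose wells per day, the group means of Lamb2 ran from 6.01 to 14.9 CPM on day 1, from 43.9 to 115.7 on day 3 and from 124.5 to 260.5 on day 7. Those of Itga3 ran from 21.2 to 61.3 CPM, from 47.1 to 121.6 and from 210.5 to 516.6 on these days. Group means of Itgb4 ran from 1.31 to 3.00 CPM on day 1, from 5.40 to 10.9 on day 3 and from 22.1 to 40.2 on day 7, so that for Itgb4 as for Lamb2 no day overlapped another. Those of Lamb3 ran from 22.3 to 48.4 CPM, from 28.6 to 117.8 and from 10.7 to 19.5, with day 7 below every group of the earlier days. For Lama5 they ran from 3.30 to 16.45 CPM, from 9.11 to 38.38 and from 26.35 to 38.38, so that day 3 overlapped both other days.

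The second question is whether the non-parenchymal cells changed these genes. In vehicle wells no member differed between co-culture and monoculture on day 1, 3 or 7 by edgeR, nor did any of all rows tested (0% called). DESeq2 called 0 members on each day, and 0 members had p under 0.05 before adjustment on any day. Over all wells of a day, vehicle and compound alike, 0 members were called on day 1 by edgeR, where 0.288% of all rows were (0.24% higher, 0.048% lower). Before adjustment 7 members had p under 0.05 that day, and DESeq2 called 1. On day 3, 1 member was called, higher in co-culture (0.126% of all rows, 0.0819% higher and 0.0446% lower). On day 7, 0 were called by edgeR (0.117% of all rows) and by DESeq2, and 4 had p under 0.05 before adjustment. The member called on day 3 was Itgad (probe 37796), higher in co-culture with a log2 fold change of 2.05 ± 0.47 (SE, adjusted p = 0.0436). The second Itgad probe had too few counts to be tested on that day. In the vehicle libraries of that day Itgad had 0, 0, 0.420 and 0.885 CPM in monoculture and 7.28, 1.10, 5.46 and 2.99 in co-culture, so that every co-culture library lay above every monoculture library. The call did not hold without plate 1 (adjusted p = 0.0532) or plate 5 (adjusted p = 0.299), nor without the 3 libraries with conflicting doses, where the log2 fold change was 1.97 (adjusted p = 0.103). Without plate 7 or 9 it could not be fitted. Of the 29 members tested over all wells on day 3, 8 had groups without a count in both cultures, which left no usable test of the average over 13 groups.

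With plate as a block, 3 members were called over all wells on day 3 (0.908% of all rows) and 5 on day 7 (2.94% of all rows). On day 3 these were Itgad and Itgax, higher in co-culture, and Lamb3, lower at -0.59 (adjusted p = 0.102) without the block. On day 7 these were Itga8, Itgb2, Itgad, Lama2 and Lama4, all higher in co-culture. The change of a member from day 1 to day 7 was not called different between the cultures for any member (0% of all rows), and neither was any response to a highest dose (0 members by edgeR and by DESeq2 in each of the 12 tests, with 0 to 3 members per test at p under 0.05 before adjustment).

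The third question is how each compound moved the members against the vehicle of the same day, averaged over both cultures. All compounds of a day share its 8 vehicle libraries, so the comparisons below are not independent of each other. Responses were seen at the highest dose of phenobarbital, ketoconazole and gemfibrozil. All called members fell there except Itga2, which rose with ketoconazole on day 3. On day 3 between 1 and 3 rows with few counts had groups at 0 in treated and vehicle wells alike, and these had no usable test.

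**Figure D4:**
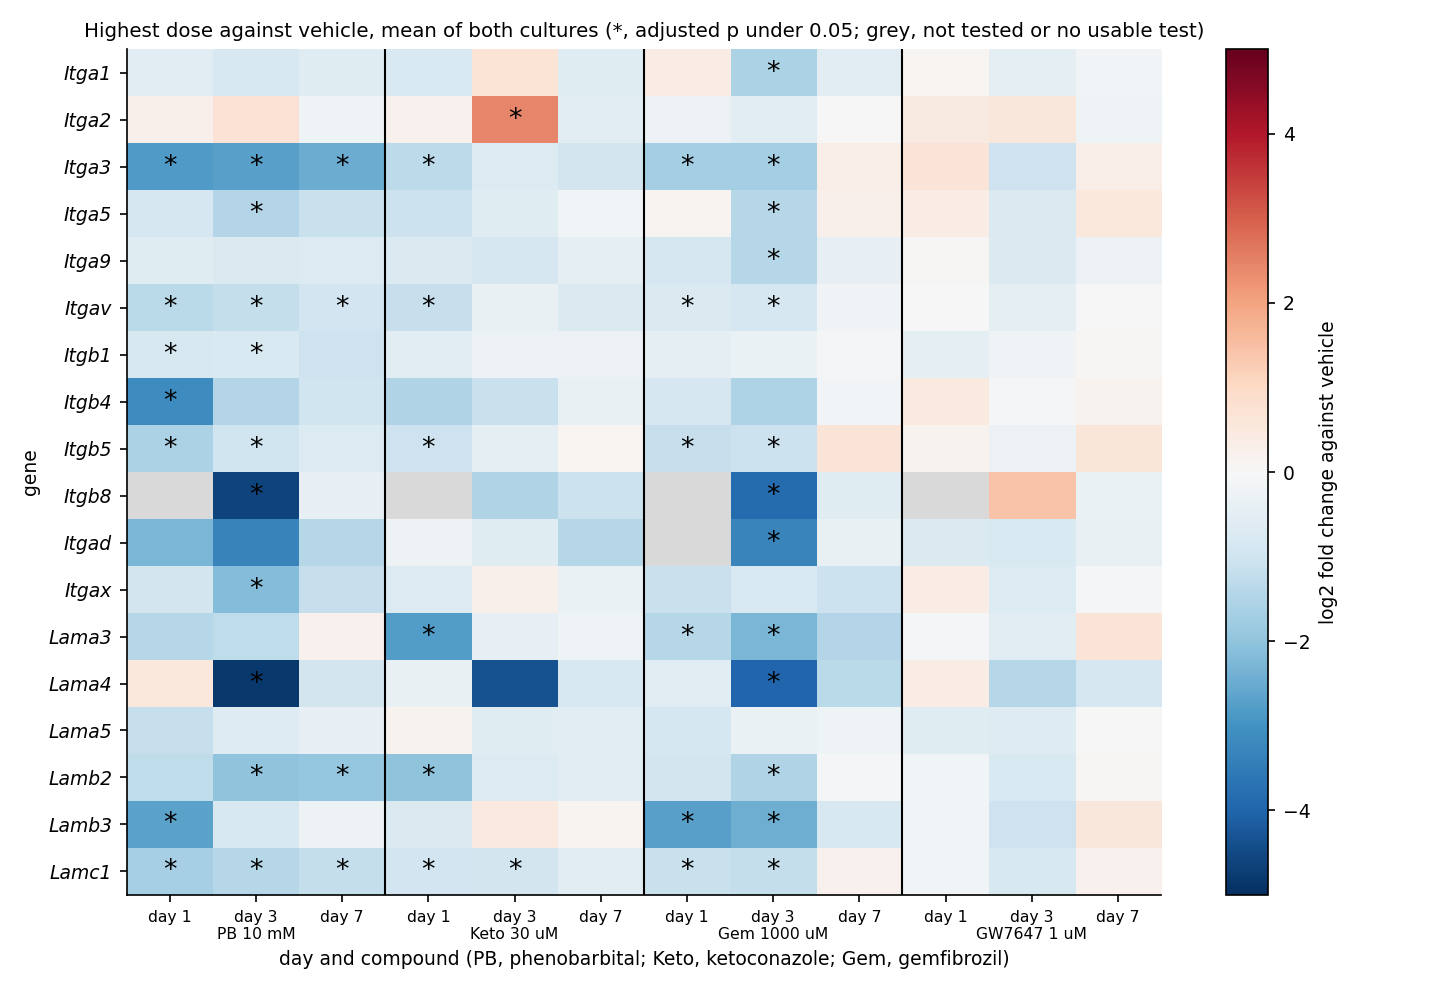
Log2 fold change against vehicle at the highest dose of each compound (columns, by day) for 18 members (rows), as the mean of both cultures, with blue for lower, red for higher, grey for no test or no usable one and a star for an adjusted p under 0.05. Itga3, Itgav and Lamc1 are starred for phenobarbital on all 3 days, Itga2 is the only starred rise, and the columns of GW7647 have no star.

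Phenobarbital at 10 mM lowered 8 of 24 tested members on day 1, 11 of 29 on day 3 and 5 of 32 on day 7, and raised none. Of all rows 17% were called on day 1 (9.26% higher, 7.77% lower), 12.7% on day 3 (5.11% higher, 7.55% lower) and 6.09% on day 7 (2.81% higher, 3.28% lower). The median log2 fold change of the members was -0.88, -0.98 and -0.68 on the 3 days, against 0.08, 0.18 and 0.01 over all rows. On day 7 the count became 12 with plate as a block (13.4% of all rows). The day-3 count was 6, 4 and 2 without plates 1, 5 and 7 (6.89%, 4.96% and 3.46% of all rows), and the day-7 count 0 and 2 without plates 3 and 7 (0.76% and 0.898%). The monoculture wells among these carry the conflicting compound label, and in co-culture alone 4 members were called on day 1 and 0 on days 3 and 7 by edgeR, where 2.81%, 3.28% and 0.0219% of all rows were. Before adjustment 9 and 4 members had p under 0.05 in co-culture alone on days 3 and 7, and DESeq2 called 4 and 0.

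Itga3 fell on every day. On day 1 it stood at 4.71, 3.03, 2.23 and 5.09 CPM in monoculture and 11.1, 4.84, 6.04 and 1.17 in co-culture, below all 8 vehicle libraries (15.97 to 51.0 CPM). That amounted to a log2 fold change of -2.82 ± 0.49 (SE, adjusted p = 1.53e-05), and in co-culture alone -2.51 (adjusted p = 0.0267). On day 3 it had 11.7, 13.5 and 10.7 CPM in monoculture and 30.4, 11.99 and 8.07 in co-culture (plates 1, 5 and 7), again below every vehicle library of that day, with a log2 fold change of -2.73 ± 0.54 (SE, adjusted p = 0.00019). In co-culture alone the day-3 change was -2.22 (adjusted p = 0.0744). On day 7 the values were 15.3, 16.1, 101 and 21.1 CPM in monoculture and 121, 41.2, 107 and 55.5 in co-culture. Plate 5 of monoculture and plates 1 and 5 of co-culture lay above the lowest vehicle library, and the other 5 libraries lay below all of them. Day 7 gave a log2 fold change of -2.46 ± 0.64 (SE, adjusted p = 0.011), lost without plate 3 or 7 (adjusted p up to 0.137), and -1.99 (adjusted p = 0.613) in co-culture alone.

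Other receptor chains moved the same way. Itgav had 88.2, 82.2, 55.8 and 47.4 CPM in monoculture and 88.5, 94.3, 54.8 and 50.9 in co-culture on day 1, below every vehicle library. Its log2 fold change was -1.35 ± 0.22 (SE, adjusted p = 3.50e-06) on day 1, -1.17 ± 0.34 (SE, adjusted p = 0.0134) on day 3 and -0.97 ± 0.24 (SE, adjusted p = 0.00778) on day 7. The last 2 were lost without plate 1, 5 or 7 (adjusted p up to 0.344) and without plate 3 or 7 (adjusted p up to 0.232). In co-culture alone it was -1.27 (adjusted p = 0.0109) on day 1, -1.30 (adjusted p = 0.103) on day 3 and -0.76 (adjusted p = 0.613) on day 7. Itgb1 had 400.0, 278, 291 and 339.8 CPM and 397, 298, 346 and 307 on day 1, all below the vehicle libraries, which ran from 510 to 748 CPM. Expressed as log2 fold change, the move was -0.81 ± 0.22 (SE, adjusted p = 0.00722), a call lost without plate 5 or 7 (adjusted p up to 0.0664), and in co-culture alone -0.76 (adjusted p = 0.173). On day 3 Itgb1 changed by -0.74 ± 0.25 (SE, adjusted p = 0.0361), lost without any 1 of the 4 plates. Itgb4, already low on day 1, had 0, 0.655, 0 and 0 CPM and 0, 0.631, 1.01 and 0, with 5 of the 8 libraries at 0. It changed by -3.16 ± 0.72 (SE, adjusted p = 0.000927), and by -2.64 (adjusted p = 0.125) in co-culture alone. Itga5 fell on day 3 at -1.45 ± 0.43 (SE, adjusted p = 0.0167), from 56.7, 42.6, 45.4 and 33.6 CPM in the monoculture vehicle to 24.9, 14.9 and 10.7, a call lost without plate 1, 5 or 7 (adjusted p up to 0.251). In co-culture alone the day-3 changes were -1.46 (adjusted p = 0.146) for Itga5 and -0.92 (adjusted p = 0.117) for Itgb1. On days 1 and 7 Itga5 passed only with plate as a block (adjusted p = 0.0073 and 0.00235).

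Of the laminin chains, Lamc1 fell on all 3 days. It had 517, 486, 348 and 486 CPM in monoculture and 985, 681, 736 and 509 in co-culture on day 1, where no vehicle library was below 1518 CPM. In log2 units it changed by -1.66 ± 0.29 (SE, adjusted p = 1.19e-05) on day 1, -1.44 ± 0.30 (SE, adjusted p = 0.000431) on day 3 and -1.20 ± 0.28 (SE, adjusted p = 0.00392) on day 7. The last 2 were lost without plate 7 (adjusted p up to 0.0695) and without plate 3 or 5 (adjusted p up to 0.198). In co-culture alone they were -1.34 (adjusted p = 0.0457), -1.31 (adjusted p = 0.0655) and -0.81 (adjusted p = 0.688).

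Lamb3 and Lamb2 were called on different days, though both stood below vehicle on all 3 days in the mean of both cultures. A difference between days or between the 2 genes was not tested. Lamb3 had 1.64, 3.11, 5.81 and 5.74 CPM in monoculture and 7.93, 3.89, 8.55 and 5.46 in co-culture on day 1, all below the vehicle libraries. On the log2 scale it moved by -2.66 ± 0.45 (SE, adjusted p = 7.47e-06), and -2.09 (adjusted p = 0.0437) in co-culture alone. It was -0.80 ± 0.43 (SE, adjusted p = 0.209) on day 3 and -0.24 ± 0.62 (SE, adjusted p = 0.858) on day 7, and in co-culture alone -0.67 (adjusted p = 0.514) and 0.15 (adjusted p = 0.999). Lamb2 changed by -1.27 ± 0.47 (SE, adjusted p = 0.0505) on day 1, which passed only with plate as a block (adjusted p = 0.0146), by -2.01 ± 0.43 (SE, adjusted p = 0.000587) on day 3 and by -1.92 ± 0.34 (SE, adjusted p = 8.84e-05) on day 7. On day 7 it had 34.9, 13.6, 81.9 and 33.5 CPM in monoculture and 83.2, 34.5, 132 and 25.4 in co-culture, where only plate 5 of co-culture reached the vehicle range. The day-3 call was lost without plate 7 (adjusted p up to 0.0737) and the day-7 call without plate 3 (adjusted p up to 0.0775). In co-culture alone Lamb2 changed by -1.01 (adjusted p = 0.292) and -1.42 (adjusted p = 0.357). In the same wells the summed stellate and mesenchymal markers ran from 13.8 to 24.0 CPM in monoculture and from 9.36 to 25.98 in co-culture on day 1, below the vehicle ranges of 60.9 to 374.5 and 76.1 to 239.5. On day 3 they ran from 40.1 to 182 CPM in monoculture and 56.8 to 201 in co-culture, against 255 to 855 and 387 to 802 in vehicle. On day 7 they ran from 203 to 4225 CPM and 736 to 4321, against 1240.0 to 11950 and 3177 to 16570, so that the ranges of day 7 overlap and those of day 3 do not. Cholangiocyte markers had a median of 22.2 and 34.9 CPM on day 3, against 737 and 965 in vehicle, and macrophage markers one of 30.4 and 86.5 CPM against 156 and 334. The part of all these markers in the falls was not tested.

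Ketoconazole at 30 µM lowered 7 of 24 tested members on day 1 (17.3% of all rows called, 8.13% higher and 9.19% lower) and raised none. On day 3 it raised 1 and lowered 1 of 29 (3.18% of all rows called, 1.14% higher and 2.05% lower). On day 7 it moved 0 of 32 by edgeR (0.518% of all rows), where 7 members had p under 0.05 before adjustment and DESeq2 called 1. The members' median log2 fold change on day 1 was -0.73 against 0.06 over all rows. With plate as a block the counts were 11, 4 and 1 (21.4%, 12.6% and 1.86% of all rows), and DESeq2 also called 11 on day 1. The day-1 count was 4 without plate 5 and without plate 7 (6.65% and 11.8% of all rows). The day-3 count of 2 was 1 without plate 1 or 3 and 0 without plate 5 or 7. The share of all rows called in those fits is not given, so this cannot be told from a loss over all rows. Among the members that the block added were Itga5, Itga9, Itgb1 and Itgb4 on day 1, Lama4 on day 3 and Itgav on day 7, all lower.

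Lama3, the alpha chain of the epithelial laminin, had 0, 2.72, 0.966 and 1.63 CPM in monoculture and 0, 0.188, 0.884 and 2.08 in co-culture on day 1. Of these 8 libraries 7 lay below every vehicle library of day 1, the lowest of which stood at 2.44 CPM, and the exception was plate 3 of monoculture. In log2 fold change this was -2.77 ± 0.58 (SE, adjusted p = 0.000255), held without any single plate. Its beta partner Lamb3 had 26.7, 42.9, 9.18 and 14.8 CPM and 3.01, 32.5, 19.1 and 13.3, overlapping the vehicle. It changed by -0.73 ± 0.42 (SE, adjusted p = 0.236) on day 1 and 0.47 ± 0.39 (SE, adjusted p = 0.553) on day 3. Lamb2 had 4.38, 1.44, 0.604 and 1.09 CPM and 7.94, 2.25, 1.95 and 2.49 and a log2 fold change of -2.02 ± 0.49 (SE, adjusted p = 0.0019), also held without any single plate. Stellate and mesenchymal markers summed to 11.8 to 66.3 CPM in monoculture and 22.4 to 209.7 in co-culture in these wells. Of 10 hepatocyte marker probes 3 fell and 0 rose on day 1, where 2165 of 12504 rows of the whole table were called. The part of either was not tested.

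Itgav, at 87.5, 87.7, 80.4 and 53.9 CPM in monoculture and 73.1, 96.4, 89.8 and 75.5 in co-culture, lay below all 8 vehicle libraries of day 1 and changed by -1.17 ± 0.22 (SE, adjusted p = 4.02e-05). Itga3 had 3.69, 27.8, 2.42 and 16.5 CPM and 2.46, 19.4, 17.5 and 20.3, with a wide spread in which 3 of 8 libraries were under 4 CPM. Its log2 fold change was -1.29 ± 0.47 (SE, adjusted p = 0.0423), lost without plate 1, 5 or 7 (adjusted p up to 0.419). Lamc1 changed by -0.97 ± 0.28 (SE, adjusted p = 0.00968) on day 1, lost without plate 1, 5 or 7 (adjusted p up to 0.0841), and by -0.90 ± 0.27 (SE, adjusted p = 0.0468) on day 3, lost without any 1 of the 4 plates. Itga2, a collagen receptor chain of platelets and epithelia picked after its values were seen, was the 1 member that any highest dose raised. On day 3 it had 2.33, 22.7, 32.3 and 20.1 CPM in monoculture and 4.35, 0.270, 11.3 and 13.7 in co-culture, against 0, 4.46, 2.31 and 0.708 and 1.53, 3.85, 1.15 and 3.49 in vehicle. The groups overlapped in both cultures, and 5 of the 8 treated libraries lay above all vehicle libraries. On the log2 scale the change was 2.45 ± 0.73 (SE, adjusted p = 0.044), lost without plate 5 or 7 (adjusted p up to 0.403).

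Gemfibrozil at 1000 µM lowered 7 of 24 tested members on day 1 and 14 of 29 on day 3, raised none, and moved 0 of 32 on day 7 by edgeR and by DESeq2. Before adjustment 5 members had p under 0.05 on day 7. Of all rows 17.4% were called on day 1 (9.84% higher, 7.51% lower), 20.2% on day 3 (13.1% higher, 7.02% lower) and 0% on day 7. The median log2 fold change of the members was -0.78 on day 1 and -1.19 on day 3, against 0.10 and 0.27 over all rows. The day-1 count was 4, 3 and 2 without plates 1, 3 and 5 (8.2%, 12.5% and 3.39% of all rows). The day-3 count was 9 without plate 1 (10.1% of all rows) and 1 without plate 5 (1.52% of all rows), where Lamb3 was the member that stayed called. Averaged over both cultures Itgad on day 1 and 3 rows on day 3 had no usable test. The stellate and mesenchymal markers summed to 27.1 to 60.5 CPM in monoculture and 25.2 to 45.9 in co-culture on day 1, below their vehicle ranges. On day 3 the cholangiocyte markers summed to a median of 37.7 and 37.6 CPM against 737 and 965 in vehicle. Of 10 hepatocyte marker probes 4 fell and 0 rose on day 1, and 4 fell and 1 rose on day 3. Of 12 macrophage probes 0 were called on day 1, and 2 fell and 1 rose on day 3. The part of any of these markers was not tested.

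Lamb3 had 0, 3.23, 3.90 and 6.73 CPM in monoculture and 11.99, 8.31, 1.75 and 6.24 in co-culture on day 1, where 1 library of 8, plate 1 of co-culture, lay above the lowest vehicle library of 10.7 CPM. Its change in log2 was -2.72 ± 0.45 (SE, adjusted p = 1.27e-05). On day 3 it had 12.98, 36.5, 21.8, 10.5 and 32.9 CPM in monoculture (plates 1, 3, 5, 7 and 9) and 4.58, 14.5, 11.4 and 8.62 in co-culture (plates 1, 5, 7 and 9), below all 8 vehicle libraries (38.8 to 125.2 CPM). Day 3 gave a log2 fold change of -2.42 ± 0.40 (SE, adjusted p = 2.19e-05), and on day 7 it was -0.79 ± 0.65 (SE, adjusted p = 1). Lama3 changed by -1.44 ± 0.54 (SE, adjusted p = 0.0496) on day 1, lost without plate 1, 3 or 5 (adjusted p up to 0.221), and by -2.28 ± 0.53 (SE, adjusted p = 0.00203) on day 3, lost without plate 1 or 5 (adjusted p up to 0.0708). Its day-3 values were 0, 4.005, 0.248, 4.70 and 1.59 CPM and 0, 2.03, 7.22 and 0.798.

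Lamc1 had 861, 1193, 765, 1992 and 648 CPM in monoculture and 495, 503, 1061 and 376 in co-culture on day 3. It changed by -1.12 ± 0.28 (SE, adjusted p = 0.00348) on day 1 and -1.19 ± 0.26 (SE, adjusted p = 0.0013) on day 3, calls lost without plate 3 (adjusted p up to 0.0537) and without plate 5 (adjusted p up to 0.0634). Lamb2 changed by -0.94 ± 0.47 (SE, adjusted p = 0.156) on day 1, which did not pass, and by -1.50 ± 0.37 (SE, adjusted p = 0.00377) on day 3, lost without plate 5 (adjusted p up to 0.0852). Itga3 had 6.12, 2.83, 2.09 and 25.8 CPM and 5.07, 2.08, 4.21 and 32.97 on day 1, low on plates 1, 3 and 5 and within the vehicle range on plate 7 in both cultures. Its log2 fold change was -1.71 ± 0.47 (SE, adjusted p = 0.00754), lost without plate 1, 3 or 5 (adjusted p up to 0.126), and -1.68 ± 0.45 (SE, adjusted p = 0.00683) on day 3. Itga1 had 29.4, 57.8, 22.6, 49.1 and 16.7 CPM and 21.02, 21.5, 51.1 and 34.8 on day 3, all below the lowest vehicle library of 75.1 CPM. It fell by a log2 fold change of -1.57 ± 0.35 (SE, adjusted p = 0.00143). The fibronectin receptor chain Itga5 changed by -1.42 ± 0.38 (SE, adjusted p = 0.00692) and Itga9 by -1.42 ± 0.35 (SE, adjusted p = 0.004) on that day. Of the day-3 calls of Itga3, Itga1, Itga5 and Itga9, each was lost without plate 5 and no other (adjusted p = 0.135, 0.0696, 0.128 and 0.0993).

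Lower doses moved few rows of any kind, except gemfibrozil at 100 µM on day 1. In every other lower-dose comparison between 0 and 17 of all rows were called, so 0 members called there is the level of the whole table. Over the 8 lower doses on 3 days, 2 members were called, both lower with gemfibrozil at 100 µM on day 1. These were 2 of 24 tested, where 15% of all rows were called: Itgb1 at -0.80 ± 0.22 (SE, adjusted p = 0.0207) and Lamc1 at -0.79 ± 0.28 (SE, adjusted p = 0.0458). Itgb1 had a mean of 418.6 ± 144.1 CPM (SD, 8 wells) at 10 µM, 339.6 ± 124.2 at 100 µM and 428.7 ± 179.9 at 1000 µM, so the level at the highest dose was not below that at the middle one. The Itgb1 call was lost without plate 1 or 7 (adjusted p up to 0.233) and the Lamc1 call without plate 1, 3 or 7 (adjusted p up to 0.252). GW7647 at 1 µM moved 0 of 24, 0 of 29 and 0 of 32 tested members by edgeR on days 1, 3 and 7 (0.352%, 0.29% and 0.0219% of all rows called), where DESeq2 called 0, 1 and 0. On day 3 the share of all rows moved with the scaling: 5.1% were called with size factors in edgeR, with 0 members among them, and DESeq2 called 1398 rows against 39 by edgeR. Before adjustment 1, 8 and 0 members had p under 0.05. On day 3 the member nearest to the threshold was Lamc1, at -0.78 ± 0.26 (SE, adjusted p = 0.079), and without the 3 libraries with conflicting doses 0 members were called as well.

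**Figure D5:**
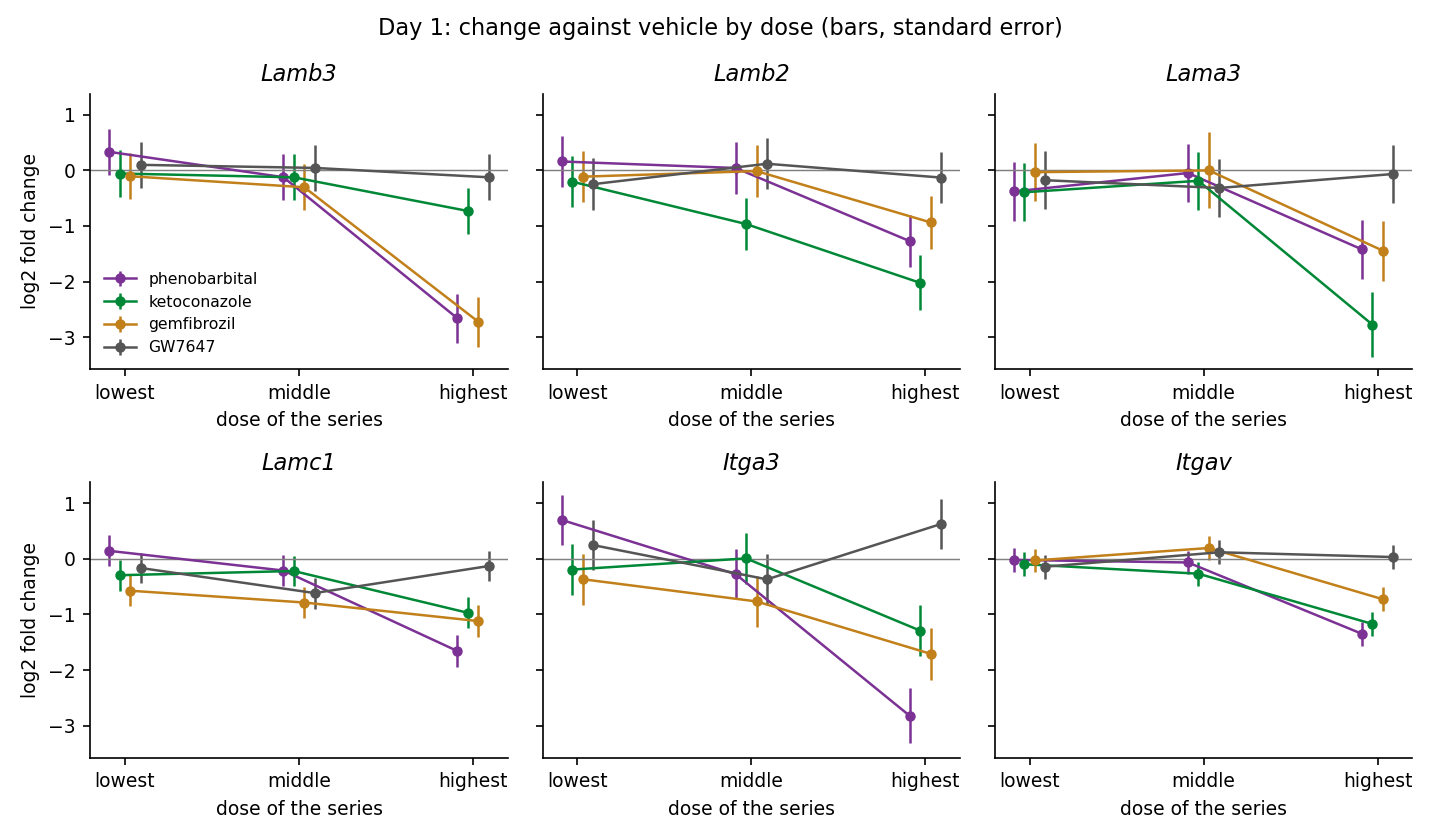
Log2 fold change against vehicle on day 1 (vertical axes, bars are standard errors) at the lowest, middle and highest dose of each compound (horizontal axes) for 6 members, with lines joining the doses of 1 compound. With phenobarbital and ketoconazole each of the 6 members is lowest at the highest dose, and the lowest value at a smaller dose is that of Lamb2 with ketoconazole at 10 µM (-0.97). At the highest doses Lamb3 stands at -2.66 with phenobarbital, -2.72 with gemfibrozil and -0.73 with ketoconazole, and GW7647 stays between -0.61 and 0.63.

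Adaptors and kinases that connect integrins to actin, and matrix proteins that integrins bind, were looked at from lists of 30 and 26 genes. Of the adaptors and kinases 25 had a probe and 21 genes were tested over time, where, of 23 probes, 5 rose and 2 fell from day 1 to day 7 in monoculture and 7 rose and 2 fell in co-culture, against the 22.4% and 22.8% of all rows called. The adaptor Tns1 changed by 3.70 ± 0.58 (SE, adjusted p = 0.000104) in monoculture and the kinase Src by 3.37 ± 0.58 (SE, adjusted p = 0.000312), while Ilk, the integrin-linked pseudokinase, fell by a log2 fold change of -1.27 ± 0.24 (SE, adjusted p = 0.000599). With phenobarbital at 10 mM, 7 of 24, 8 of 27 and 10 of 26 probes fell on days 1, 3 and 7 (17%, 12.7% and 6.09% of all rows called) and none rose, among them the actin crosslinker Actn1 at -2.01 ± 0.29 (SE, adjusted p = 3.70e-07) and Ilk at -1.45 ± 0.19 (SE, adjusted p = 2.55e-08) on day 1. In co-culture alone 2, 2 and 0 fell (2.81%, 3.28% and 0.0219% of all rows called). The day-1 changes there were -1.65 ± 0.41 (SE, adjusted p = 0.0124) for Actn1 and -1.48 ± 0.27 (SE, adjusted p = 0.000367) for Ilk. With ketoconazole at 30 µM 4 of 24 fell and 1 rose on day 1 (17.3% of all rows called, 9.19% lower). With gemfibrozil at 1000 µM 6 of 24 fell and 1 rose on day 1 (17.4% of all rows called, 7.51% lower). On day 3 of gemfibrozil 6 of 27 fell (20.2% of all rows called, 7.02% lower).

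Of the matrix ligands and partners 24 had a probe and 20 genes were tested over time. Of 23 probes, 13 rose and 2 fell from day 1 to day 7 in monoculture and 15 rose and 2 fell in co-culture. Of all rows 22.4% and 22.8% were called. Col4a2, a chain of the basement membrane collagen, changed by 4.99 ± 0.61 (SE, adjusted p = 7.80e-06) in monoculture and 5.32 ± 0.62 (SE, adjusted p = 4.67e-06) in co-culture, and Nid2, which links laminin to that collagen, by 2.16 ± 0.55 (SE, adjusted p = 0.00721) and 2.59 ± 0.56 (SE, adjusted p = 0.00206). The laminin receptor Dag1 and Icam1, a ligand of leukocyte integrins, were the 2 that fell, at -1.002 ± 0.36 (SE, adjusted p = 0.047) and -1.16 ± 0.36 (SE, adjusted p = 0.0254) in monoculture. With phenobarbital at 10 mM 8 of 21, 10 of 23 and 6 of 25 probes fell on days 1, 3 and 7 and none rose (17%, 12.7% and 6.09% of all rows called). In co-culture alone 2, 3 and 0 fell (2.81%, 3.28% and 0.0219% of all rows called). With ketoconazole at 30 µM 8 of 21 fell on day 1 and 2 of 23 on day 3 (17.3% and 3.18% of all rows called). With gemfibrozil at 1000 µM 4 of 21 fell on day 1 and 7 of 23 fell and 1 rose on day 3 (17.4% and 20.2% of all rows called). The 1 that rose was Vtn, the RGD protein vitronectin, at 3.68 ± 1.18 (SE, adjusted p = 0.0213). GW7647 at 1 µM moved 0 of these matrix genes on any day and 1 of the adaptors and kinases, lower on day 3. Of all rows 0.352%, 0.29% and 0.0219% were called on days 1, 3 and 7.

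Rows near the limit of detection complete the list. Over the 4 libraries of a vehicle group, 3 counts correspond to 0.109 to 0.218 CPM, which is the level that a count of 0 allows, for counting error only. Of the 40 rows, 8 had no count in the monoculture vehicle group of day 1 and 7 in that of co-culture, 12 and 15 on day 3, and 0 and 3 on day 7. The vehicle libraries held 5907094 to 10820668 counts on day 1, 3392976 to 7346547 on day 3 and 4118609 to 8784797 on day 7. Lama1, Lamc3, Itga10, Itgb6, Itgb7 and the second Itgad probe stayed under a mean of 1 CPM in all 6 vehicle groups, as did Itga2b, Itga7, Itgal and Itgb3bp, and no statement on their change is made.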

How the data were processed

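Read counts per probe for 311 libraries were deposited by the authors as 1 table and are raw counts, per the labels' protocols and the whole values in it. The ligation assay reads the RNA at 1 short site per probe, so levels of different genes were not compared. Bowtie is named in the submitters' processing notes, with neither a version nor a genome build. Counts were normalised by TMM and tested with edgeR 4.0.16 in R 4.3.3 by the quasi-likelihood test, two-sided, after a filter (filterByExpr, minimum count 10), with Benjamini-Hochberg adjustment over all rows tested at a threshold of 0.05. The 24 vehicle libraries were fitted in 6 groups for time, and each day in 26 groups for culture and compound, where a compound's effect was the mean of both cultures. CPM values (counts scaled to a depth of 1000000) use 1 TMM scale over all libraries. SE is the log2 fold change divided by the root of F, and rows with groups at 0 on both sides of a contrast (SE over 100) had no usable test, a rule added after the fits were seen. Alternatives were DESeq2 1.42.0, its size factors, no filter, plate as a block, each plate left out and each culture alone. The fit was tested on simulated counts.

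Plate numbers mark a shared plate and so pair the libraries. Residuals of libraries on 1 plate correlated at a mean of 0.176 in the vehicle fit and 0.208, 0.176 and 0.268 in the fits of days 1, 3 and 7, against -0.0579, -0.0687, -0.047 and -0.089 between plates. Members and gene lists were chosen with earlier results of these data known. The counts include 1 member that is not reported singly here. Described singly were 11 chains listed by name, the 8 largest called rises and falls from day 1 to day 7 with a mean of at least 10 CPM in a vehicle group, and the 4 members with the smallest adjusted p per compound and between cultures, and others are marked as picked after their values were seen. Itgb5, Itgax and Itgb1bp1 were also given outside these rules and carry no such mark. Counting limits are those of 3 counts at 95% and cover counting error only.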

Additional observations from a re-analysis of the deposited data

Results flagged for a closer look

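Within groups of 4 or 5 libraries, 147 groups of the genes described singly were checked for a library far from the others, and 12 stood out by Dixon's criterion, where chance gives about 1 in 20. No change over time or compound response of a member was called different between the cultures.

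Itga3 stood out in 4 groups treated with a highest dose. On day 1 with gemfibrozil, plate 7 was high in co-culture at 32.97 CPM (others 2.08 to 5.07) and in monoculture at 25.82 CPM (others 2.09 to 6.12). With ketoconazole on day 1, plate 1 of co-culture was low at 2.46 CPM (others 17.5 to 20.3), and with phenobarbital on day 7, plate 5 of monoculture was high at 100.9 CPM (others 15.3 to 21.1). Plate 7 of gemfibrozil was also high for Itga9 in co-culture on day 3, at 13.99 CPM (others 1.89 to 3.62).

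Lamb2 with ketoconazole on day 1 was high on plate 1 of co-culture, at 7.94 CPM (others 1.95 to 2.49).

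Among vehicle libraries, Itga5 on day 1 was high on plate 1 of co-culture, at 40.29 CPM (others 13.9 to 14.4), and low on plate 7 of monoculture, at 15.22 CPM (others 29.6 to 32.1). Plate 7 was also low for Lama5 in monoculture on day 1, at 5.40 CPM (others 9.20 to 9.59), and for Itgad in co-culture on day 7, at 8.54 CPM (others 10.7 to 10.9). Itgb1 was high on plate 1 of monoculture on day 1, at 747.6 CPM (others 556 to 575), and Itgav was low on plate 1 of monoculture on day 3, at 120.4 CPM (others 279.8 to 308.6).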

How the results depend on the processing

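Over 59 calls of singly described genes, 567 recomputed values kept their direction, 432 also stayed past the threshold, and 135 did not. With plate as a block 59 of 59 were kept and it ended none of these calls, with DESeq2 58 of 59, with its size factors 57 and without the filter 52. Leaving out plate 5 ended 26 of 59, plate 1 ended 16, plate 3 ended 15, plate 7 ended 14 of 58 and plate 9 ended 2 of 17, and a culture alone kept 16 (monoculture) or 7 (co-culture) of 37. The cause of lost calls was not tested, except that fewer libraries entered.

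Counts of members called moved by over 1.5 times as follows. Without the filter they were 2 (day 3 against day 1, monoculture), 0 (all wells, day 3), 7 (phenobarbital, day 3), 0 (ketoconazole, day 3) and 1 (lower doses). The share of all rows called without the filter is not given here, so these counts cannot be set against it. With plate as a block they were 5 (day 3 against day 1, co-culture), 1, 3 and 5 (all wells, days 1, 3 and 7), 12 (phenobarbital, day 7) and 11, 4 and 1 (ketoconazole, days 1, 3 and 7). With DESeq2 they were 2 (day 3 against day 1, monoculture), 1 and 2 (all wells, days 1 and 3), 11 and 1 (ketoconazole, days 1 and 7) and 1 (GW7647, day 3). In the same order DESeq2 called 868, 87 and 76, 2702 and 356, and 1398 of all rows, against 298, 36 and 17, 2165 and 71, and 39 by edgeR. In monoculture alone they were 4 and 2 (phenobarbital, days 3 and 7), 3 and 0 (ketoconazole, days 1 and 3) and 3 and 2 (gemfibrozil, days 1 and 3). In the same order 352 and 168, 871 and 24, and 383 and 122 of all rows were called in monoculture alone. In co-culture alone they were 4, 0 and 0 (phenobarbital), 2 and 0 (ketoconazole, days 1 and 3) and 0 and 1 (gemfibrozil, days 1 and 3). In the same order 351, 441 and 3, 482 and 15, and 272 and 145 of all rows were called there. Without the 3 libraries with conflicting doses the count over all wells of day 3 was 0.

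With each plate left out in turn the counts ran from 6 to 12 (monoculture) and 8 to 14 (co-culture) for day 7 against day 1, from 0 to 2 and 1 to 3 for day 3 against day 1, and from 2 to 10 and 6 to 11 for day 7 against day 3. They ran from 0 to 2 over all wells on days 3 and 7, from 7 to 9, 2 to 11 and 0 to 7 for phenobarbital, from 4 to 7 and 0 to 2 for ketoconazole on days 1 and 3, from 2 to 8 and 1 to 13 for gemfibrozil on days 1 and 3, and from 0 to 2 at lower doses. Where the share of all rows without a plate is given above, it fell too. Elsewhere that share is not given, so a change among the members cannot be told from one over all rows. Size factors shifted the median log2 fold change of all rows by over 0.1 in 13 of 45 comparisons, by -0.183 (gemfibrozil at 100 µM, day 7) to 0.168 (GW7647 at 1 µM, day 3), and by 0.12 and 0.123 for day 7 against day 3 and 0.128 for gemfibrozil at 1000 µM on day 3. All rows called went from 39 to 686 for GW7647 at 1 µM and from 0 to 450 for gemfibrozil at 10 µM on day 3. With gemfibrozil at 100 µM on day 1 (0.138) the share of called rows that were higher went from 63.3% to 74.3%. Depth limits rows with few counts.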
